A study of Mus musculus with 14 samples.

Results

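The 7 genes described here are Crabp1, Hmga2, Sox2, Nxph1, Spon2, AW551984 and Gfra2, out of 11815 genes tested on these arrays. They were chosen because they were bright in m718, the mouse tumour labelled rhabdomyosarcoma, and dim in osteosarcomas, so their levels in m718 are a description and carry no test. Each gene was read by its brightest probe set, the one with the highest mean over the arrays. The 14 arrays hold RNA of m718 (1 array), of 12 osteosarcomas, which are bone-forming tumours, and of mc3T3 (1 array), an untreated and non-tumorigenic osteoblast line grown in culture as the control. All 13 tumours arose in p53+/- mice, which carry 1 disrupted copy of the gene for the p53 tumour suppressor. The sources used here give neither the strain, age or sex of the mice nor the site of a tumour. With a lone array of m718 and of mc3T3, neither the spread of that tumour type nor that of the line can be measured. Tumour RNA comes from a mixture of cells, so more cells of a type and more RNA per cell cannot be told apart.

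These genes belong to different systems, several of them active in embryos and in the nervous system. Crabp1 encodes a cytoplasmic carrier of retinoic acid, the vitamin A derivative that acts through nuclear receptors. Hmga2 encodes an architectural chromatin protein abundant in embryonic cells, whose messenger RNA is a classic target of the let-7 family of microRNAs. Sox2 encodes a transcription factor of pluripotent cells and of neural and other progenitors. Nxph1 encodes a secreted ligand of alpha-neurexins, which are receptors of the presynaptic membrane. Spon2 encodes a secreted matrix protein of the F-spondin family, and Gfra2 the membrane-anchored receptor for neurturin, a growth factor of the GDNF family that signals together with the kinase RET. AW551984 keeps the name of an expressed sequence, and no role is given for it here.

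The sequence just upstream of the start sites showed how unlike the promoters of these genes are in base composition. The RefSeq table used here (build GRCm38.p6) holds an upstream sequence for 5 of the 7 genes, and 250 bases before each start site were read. The following 4 are shown because they belong to the 3 genes brightest in m718 relative to the osteosarcomas among those in the table and, as a contrast, to the first of 3 listed starts of AW551984. They are written 5′ to 3′ on the strand of the gene, and capitals mark the GC box, GGGCGG on either strand.
Crabp1 (chr9:54764498-54764747, plus strand): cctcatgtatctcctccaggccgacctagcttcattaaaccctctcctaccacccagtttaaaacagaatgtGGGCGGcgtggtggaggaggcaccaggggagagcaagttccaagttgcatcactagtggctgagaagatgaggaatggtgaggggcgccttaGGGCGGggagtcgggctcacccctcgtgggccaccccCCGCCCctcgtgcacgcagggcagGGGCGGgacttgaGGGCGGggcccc
Hmga2 (chr10:120476470-120476719, minus strand): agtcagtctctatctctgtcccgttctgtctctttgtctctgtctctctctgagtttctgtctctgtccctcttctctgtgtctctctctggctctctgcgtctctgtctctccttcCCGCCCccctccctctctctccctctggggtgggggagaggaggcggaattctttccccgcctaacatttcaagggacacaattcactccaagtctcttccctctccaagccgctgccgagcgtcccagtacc
Sox2 (chr3:34649745-34649994, plus strand): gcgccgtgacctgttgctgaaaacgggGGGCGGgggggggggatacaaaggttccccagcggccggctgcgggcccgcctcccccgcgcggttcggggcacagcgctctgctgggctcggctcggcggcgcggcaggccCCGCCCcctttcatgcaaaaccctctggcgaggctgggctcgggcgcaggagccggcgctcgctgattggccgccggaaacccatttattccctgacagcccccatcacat
AW551984 (chr9:39604271-39604520, minus strand): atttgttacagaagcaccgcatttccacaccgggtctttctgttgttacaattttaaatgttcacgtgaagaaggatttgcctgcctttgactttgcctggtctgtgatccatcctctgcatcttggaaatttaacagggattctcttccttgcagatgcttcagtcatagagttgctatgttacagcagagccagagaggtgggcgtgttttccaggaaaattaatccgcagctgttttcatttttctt

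The Crabp1 sequence held 5 GC boxes, Sox2 and Nxph1 each held 2, Hmga2 held 1, and the 3 entries of AW551984 held 0. Of all 32851 upstream sequences of this length in the table, 32.7% held at least 1 GC box. CpG dinucleotides numbered 27 for Sox2, 20 for Nxph1, 12 for Crabp1 and 8 for Hmga2, and 5, 6 and 1 for the 3 AW551984 entries, against a median of 6 over the table. The Sox2 sequence was 72.0% G or C, Nxph1 66.8%, Crabp1 63.6% and Hmga2 56.4%, and the AW551984 entries were 40.4% to 52.4%, against a median of 52.4%. Thus Sox2 and Nxph1 lay at the CpG-rich end of mouse promoters and AW551984 did not. TATAAA, searched on both strands, was found in 0 of these 7 entries and in 12.4% of the table. CCAAT was found in the entries of Sox2 and Nxph1 and in 1 of AW551984, and in 33.8% of the table. AGGTCA, a nuclear receptor half-site, was found in the Sox2 entry and in 14.0% of the table. In these 7 entries 0 motifs overlapped another. A match of letters is a description of the sequence and not a measured binding site.

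The values are array signals on a linear scale, and every array had been scaled to a common trimmed mean of 500. The median signal of an array was 67.1 to 111.1, and 33.8% to 40.4% of probe sets reached 200. For beta-actin the ratio of 3′ to 5′ probe signal, which rises as RNA breaks down, was 1.24 in m718, 1.42 to 2.13 in the osteosarcomas and 1.32 in mc3T3. Over all probe sets m718 correlated with the mean of the osteosarcomas at r = 0.940, and each osteosarcoma with the mean of the others at 0.956 to 0.974, as a description across probe sets. Differences between m718 and the osteosarcoma mean are on the log2(signal + 30) scale with a standard error (SE) that rests on the spread of the 12 osteosarcomas. Without detection calls a low signal and background cannot be told apart, and a ratio to a low signal has an uncertain denominator. Levels of different genes are not compared, since each probe set has its own response.

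The tested markers of the skeletal muscle lineage were not high in m718. Of 11 tested markers of rhabdomyosarcoma and embryonic muscle, 0 rose in m718 and 1 fell by limma's moderated test. The gene that fell was Cdh15, the cadherin of muscle precursor cells, with a signal of 9.9 in m718 and 416.6 to 1763.7 in osteosarcoma, while mc3T3 had 59.0. Its difference was -4.50 ± 0.63 (SE; adjusted p = 0.00109). The myogenic factor Myod1 had 39.4 in m718, 21.3 to 454.8 in the osteosarcomas and 23.8 in mc3T3. Myog, the other main regulator of muscle differentiation, had 65.9 in m718, 11.7 to 530.2 in osteosarcoma and 58.9 in mc3T3. Neither passed the test (adjusted p = 0.765 and 0.937 by limma). The satellite cell factor Pax7, at 9.8, and Myf5, at 4.4, were dim in m718 and were not tested. Pax3 and Chrng, also not tested, lay narrowly above all osteosarcomas in m718. Pax3 had 129.3 in m718, 3.4 to 126.2 in the osteosarcomas and 169.6 in mc3T3. Chrng had 83.5 in m718, 3.6 to 78.9 in the osteosarcomas and 42.3 in mc3T3. In m718 the other untested markers of this list lay within or below the osteosarcoma range. Summed over the 18 markers the signal was 1145.4 in m718, 1921.9 to 20267.2 in the osteosarcomas and 951.9 in mc3T3, so m718 lay below every osteosarcoma. In the osteosarcomas the 20 mature skeletal muscle genes summed to 1931.4 to 422025.1, with a median of 19412.2. Their sum was 4290.3 in m718 and 2671.4 in mc3T3. The part of muscle RNA in the marker signals of the osteosarcomas was not tested. Because its tested muscle markers were not high, the tumour is called m718 here and not by its label. Whether the label is right was not tested.

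Crabp1 gave the widest gap. Its signal was 6197.2 in m718, 4.2 to 67.4 with a median of 10.9 in the osteosarcomas, and 41.4 in mc3T3. In m718 it was 92.0 times the highest osteosarcoma, o7-1, and the log2 difference of 7.06 ± 0.48 was the largest rise of the 11815 genes. All 12 osteosarcomas and mc3T3 stayed within the dim range of the array, and m718 stood alone.

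Hmga2 was bright in m718 and also in the cultured line. Its signal was 4896.2 in m718, 2.2 to 161.5 with a median of 20.9 in the osteosarcomas, and 1607.8 in mc3T3. The m718 value was 30.3 times the highest osteosarcoma and 3.05 times mc3T3, with a log2 difference of 6.33 ± 0.84 from the osteosarcomas. By that difference its rank among all genes was 2. Unlike Crabp1, it spread widely among the osteosarcomas, with c2846-(1) at 161.5, m710 at 111.8 and o7-1 at 87.3 and with 5.1 or less in m825 and m520.

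Sox2 was dim on every array but that of m718. Its signal was 1584.5 in m718, 1.4 to 27.8 with a median of 7.55 in the osteosarcomas, and 3.6 in mc3T3. That is 57.0 times the highest osteosarcoma, c3193, and the log2 difference was 5.40 ± 0.33, with the smallest error of the 7 genes.

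Nxph1 followed the same order. Its signal was 1391.8 in m718, 2.4 to 54.9 with a median of 4.55 in the osteosarcomas, and 34.2 in mc3T3. The tumour m718 had 25.4 times the highest osteosarcoma, c3261, with m710 next at 46.0, and the log2 difference was 5.13 ± 0.48.

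Spon2 differed from these in that mc3T3 was above all osteosarcomas. Its signal was 2455.8 in m718, 3.8 to 105.5 with a median of 38.1 in the osteosarcomas, and 333.6 in mc3T3. The m718 signal was 23.3 times the highest osteosarcoma, m825, and 7.36 times mc3T3, with a log2 difference of 5.11 ± 0.61. The osteosarcomas m525, c3261 and m824 came close behind m825, between 83.0 and 87.1, and none reached 200.

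AW551984 was dim in mc3T3 as in osteosarcoma, with 1241.9 in m718, 2.5 to 67.6 with a median of 4.8 in the osteosarcomas, and 1.4 in mc3T3. This was 18.4 times the highest osteosarcoma, c2846-(1), and the log2 difference was 5.02 ± 0.47. Apart from c2846-(1) and m525, at 24.6, every osteosarcoma lay at 10.4 or below.

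Gfra2 was the exception in the order of the samples, because the cultured osteoblast line was brighter than m718. Its signal was 1098.9 in m718, 2.1 to 211.7 with a median of 43.0 in the osteosarcomas, and 4660.8 in mc3T3. The m718 value was 5.19 times the highest osteosarcoma, c2846-(1), which was the only osteosarcoma at or above 200, and mc3T3 was 4.24 times m718. The log2 difference of 3.85 ± 0.83 between m718 and the osteosarcomas had rank 29 among all genes. It was 1.82 when the mean of the gene's probe sets was used in place of the brightest. The brightest set bears the suffix x_at, with which the array maker marks sets whose probes may also bind other transcripts.

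**Figure D1:**
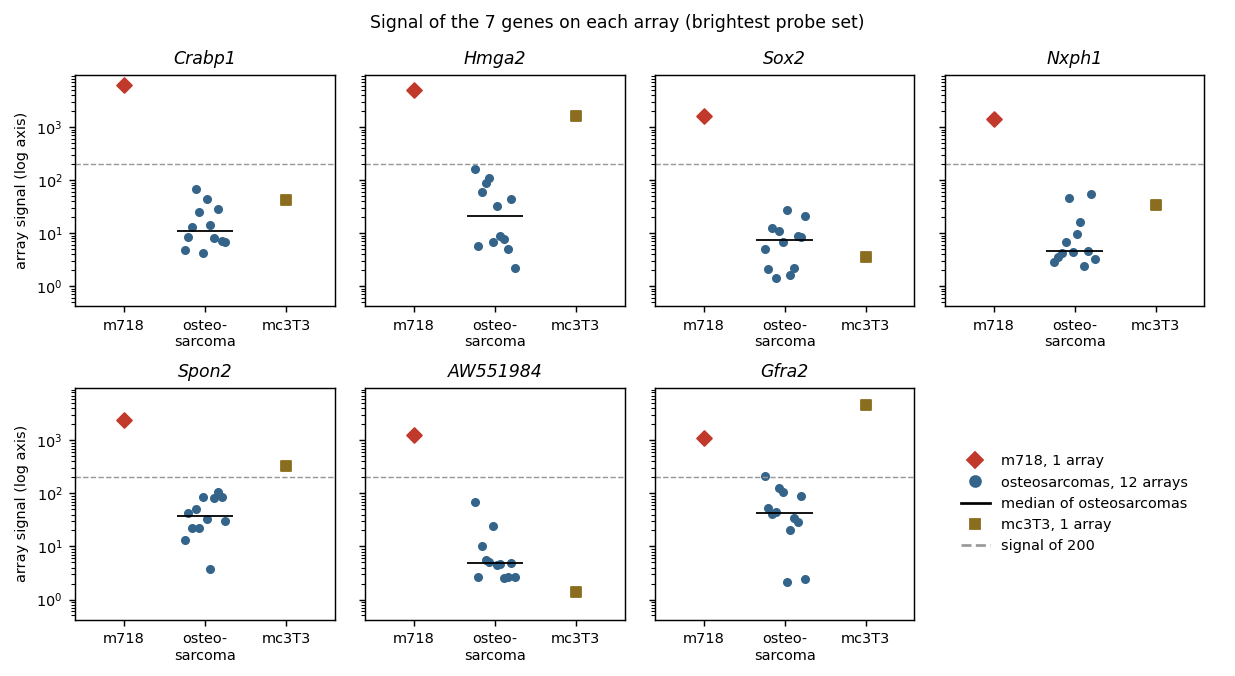
Array signal of the 7 genes, each by its brightest probe set, on a log axis, with m718 as a diamond, the 12 osteosarcomas as points with a bar at their median, and mc3T3 as a square; the dashed line marks a signal of 200. The m718 diamond lies above all osteosarcomas in each panel, and mc3T3 lies above the dashed line for Hmga2, Spon2 and Gfra2.

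By the cultured line the 7 genes fell into 2 sets. In Hmga2, Spon2 and Gfra2, mc3T3 reached 200 and lay above all 12 osteosarcomas, and in the other 4 genes it was under 200 and within or below their range. The m718 signal was above that of mc3T3 for 6 of the 7. It was above all 12 osteosarcomas for 7 of 7, which the choice of the genes fixes; over all genes tested this held for 16.6%. The members passed the filter on low signal, a signal of 200 on at least 1 array, only through m718, mc3T3 or c2846-(1), and in 6 of the 7 the osteosarcomas all stayed below 200.

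The other probe sets of the same genes had not been used in the choice, though they were read on the same arrays and are not independent samples. The 7 genes have 19 probe sets in all, and Crabp1 and Sox2 have 1 each. Of the 12 sets that were not the brightest of their gene, m718 lay above all 12 osteosarcomas on 7. Only 6 of those 12 reached 200 on any array, and m718 lay above all osteosarcomas on 5 of the 6, against 16.3% of all named probe sets that reached 200. Nothing is read from these counts, because the genes were chosen on the same contrast. Hmga2 gave a similar order on a pair of further sets. The first read 3625.9 in m718, 25.7 to 237.5 in the osteosarcomas and 896.3 in mc3T3, and the other read 1802.9 in m718, 2.0 to 157.0 in the osteosarcomas and 818.9 in mc3T3. Both of the other Nxph1 sets also placed m718 above all osteosarcomas, with 608.7 against at most 28.1 and 146.6 against at most 32.4. The second Spon2 set read 106.6 in m718, 9.7 to 81.4 in the osteosarcomas and 112.0 in mc3T3, a narrow separation at low signal.

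Not every probe set showed the difference. The other 2 AW551984 sets read 41.5 and 39.4 in m718, inside the osteosarcoma ranges of 6.5 to 69.7 and 5.9 to 104.6, so the bright signal of this gene rests on a single probe set. A pair of further Gfra2 sets read 213.8 and 201.8 in m718, against highest osteosarcoma values of 103.8 and 108.6. Its remaining sets, one with 156.7 in m718 against 87.3 to 202.7 in the osteosarcomas and one with 9.1 against 2.9 to 44.7, showed no separation. The mc3T3 signal was the highest of all arrays on all 5 Gfra2 sets. The last set of Hmga2 read 31.7 in m718 and 3.3 to 56.1 in the osteosarcomas.

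**Figure D2:**
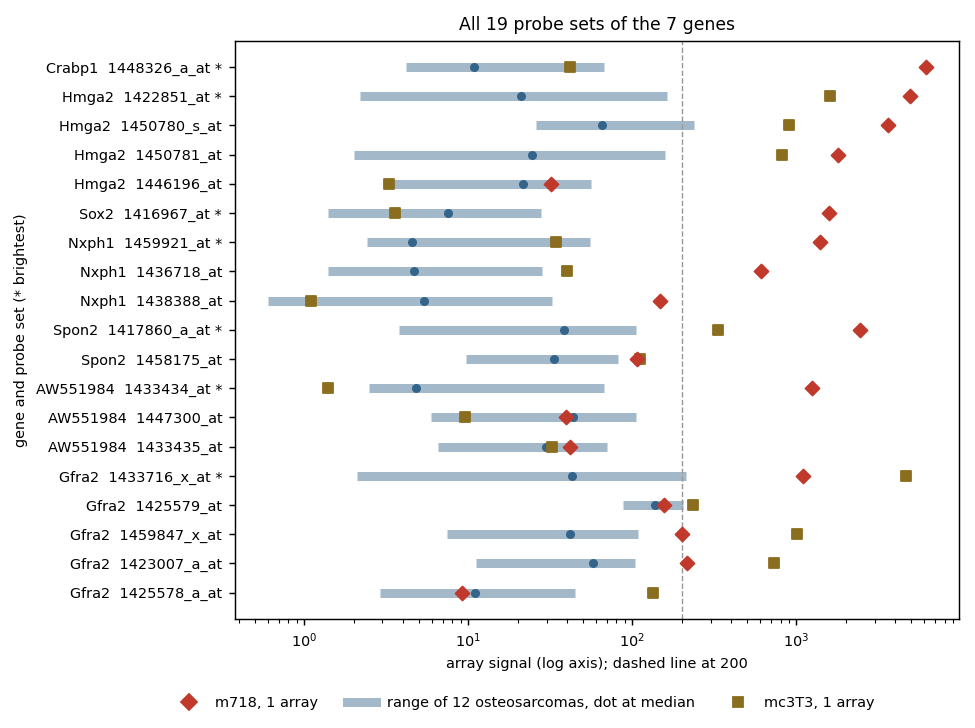
Signal on a log axis of all 19 probe sets of the 7 genes, with m718 as diamonds, the range of the 12 osteosarcomas as bars with a dot at the median, and mc3T3 as squares; an asterisk marks the brightest set of a gene. The m718 diamond lies to the right of the osteosarcoma bar on 14 sets, of which 7 are the brightest sets that the choice of genes fixed, and mc3T3 lies furthest right on all 5 sets of Gfra2.

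Among the osteosarcomas the low signals were not shared evenly. The tumour c2846-(1) was the highest osteosarcoma on the brightest set of 3 of the 7 genes, namely Hmga2, AW551984 and Gfra2. On the brightest sets of Hmga2, Nxph1 and Gfra2 m710 was the next highest. On the other AW551984 sets c2846-(1) read 6.7 and 34.4, and m525 and c3261 were the highest. On some further Gfra2 sets c2984 or o19 was the highest. For Hmga2 c2846-(1) read 161.5, 237.5 and 157.0 on 3 probe sets and o7-1 read 87.3, 220.1 and 58.1, the highest and next highest osteosarcoma on 2 of those sets. By the brightest sets, c2984, o19, m849 and m824 were neither the highest nor the next highest osteosarcoma for any of the 7. Over all 19 sets c2984 was the highest osteosarcoma on 4 and o19 on 1. The largest osteosarcoma value came from an identifier that starts with m, like that of m718, for 1 of the genes, Spon2, and from one of the 6 other osteosarcomas for the rest.

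The 7 profiles were also compared with each other, as the mean absolute difference over the 14 arrays between log2(signal + 30) profiles centred on the osteosarcoma mean. Sox2 and AW551984 were the closest pair, at 0.358, and Sox2 and Nxph1 the next, at 0.432. Crabp1 and Gfra2 were the farthest apart, at 1.37, while Gfra2 was nearest to Hmga2, at 0.774. By the same measure the 3 most alike of the other genes were found for each.

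Osr2, a zinc finger transcription factor, was the nearest gene to Crabp1 (0.484), with 453.7 in m718, 1.2 to 36.0 in the osteosarcomas and 6.4 in mc3T3. Lratd1 was the nearest to Sox2 (0.397), with 629.5 in m718, 1.5 to 35.5 in the osteosarcomas and 28.9 in mc3T3, and it was also among the nearest 3 of Crabp1, Nxph1 and AW551984. Gria1, a glutamate receptor subunit, was near to Sox2 and Nxph1, and Gpr149 to Crabp1. The nearest to Nxph1 was 3110039M20Rik (0.330), with 1165.8 in m718, 1.1 to 43.0 in the osteosarcomas and 52.9 in mc3T3. Lrrc4c, a synaptic adhesion protein, was nearest to AW551984 (0.407), with 255.1 in m718.

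For Hmga2, Gfra2 and Spon2 the nearest genes were Igfbp6, Rgs17 and Nr2f2. Igfbp6, which binds insulin-like growth factor II, was the nearest to Hmga2 (0.746), with 12626.0 in m718, 31.4 to 509.7 in the osteosarcomas and 1704.5 in mc3T3. Rgs17, a regulator of G protein signalling, was the nearest to Gfra2 (0.665) and among the nearest of Hmga2, with 555.8 in m718, 23.8 to 93.2 in the osteosarcomas and 1215.9 in mc3T3. The transcription factor gene Twist2 (0.698) and then Runx1t1 (0.727) came next for Gfra2, and the aryl hydrocarbon receptor gene Ahr (0.863) for Hmga2. Spon2 was nearest to Nr2f2 (0.493), an orphan nuclear receptor gene with 1283.6 in m718, 117.8 to 264.5 in the osteosarcomas and 748.3 in mc3T3. The next for Spon2 were 3110039M20Rik (0.555), also the nearest to Nxph1, and Emx2 (0.577), a homeobox gene. These genes were picked by their likeness, so their high m718 values follow from the rule.

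The pathways of the 7 genes were then examined through 8 lists of partner genes, of which 71 genes were tested. Of all genes tested, 1.19% rose and 1.76% fell in m718 by limma, two-sided, at a Benjamini-Hochberg adjusted p under 0.05 and a log2 difference of at least 1. Of the 71 partner genes 3 rose (4.23%) and 1 fell, and m718 lay above all 12 osteosarcomas for 12 (16.9%, against 16.6% of all genes). By the count above all 12 osteosarcomas alone, the partner genes as a whole therefore stood near the background. Their share that rose was above its background.

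In the retinoic acid list, which holds genes for binding, synthesis, breakdown and reception, 0 of 18 tested genes rose and 0 fell, with a median difference of -0.20 against 0.05 over all genes. Crabp2, the closest relative of Crabp1, had 8789.5 in m718, 7.3 to 2931.9 with a median of 220.6 in the osteosarcomas, and 3221.2 in mc3T3. Its difference of 5.43 ± 1.80 did not pass (limma adjusted p = 0.136), and the osteosarcomas themselves spread over a wide range. Rdh10, a retinol dehydrogenase, had 1038.2 in m718 against 374.9 to 958.6 in the osteosarcomas and did not pass either (0.81 ± 0.40). The receptor gene Rarb (241.6 in m718, 50.3 to 319.4 in the osteosarcomas) and the degrading enzymes Cyp26a1 (13.2 against 4.6 to 201.8) and Cyp26b1 (64.5 against 67.1 to 2380.5) were not above the osteosarcomas. All 3 are known to be induced by retinoic acid in many cells. Whether retinoic acid signalling was active in m718 was not tested.

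Around Hmga2 the list held let-7 antagonists and oncofetal growth genes, and 1 of 8 tested genes rose. It was Dlk1, an imprinted membrane protein of fetal tissues and preadipocytes, with 1047.8 in m718, 73.3 to 144.9 in osteosarcoma and 55.3 in mc3T3. Its difference was 2.92 ± 0.31 (limma adjusted p = 7.50e-05). The osteosarcomas formed a narrow band, and mc3T3 did not share the rise, unlike Hmga2 itself. Lin28a and Lin28b, which block the maturation of let-7, were dim in m718, at 5.8 and 8.4. The let-7 target Igf2bp3 had 573.5 in m718, 178.6 to 701.0 in the osteosarcomas and 1163.9 in mc3T3, and did not pass (0.90 ± 0.61).

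Of 11 tested Sox genes besides Sox2, 1 rose, 0 fell and m718 lay above all osteosarcomas for 3. Sox5, a factor of cartilage and of neural crest, had 270.0 in m718, 5.6 to 44.6 in the osteosarcomas and 297.8 in mc3T3, a difference of 2.79 ± 0.34 (limma adjusted p = 0.000285). Sox9, which acts with Sox5 in cartilage, had 1213.6 in m718, 92.9 to 776.8 in the osteosarcomas and 3183.1 in mc3T3, and did not pass (2.26 ± 0.77, adjusted p = 0.152 by limma). Sox11 had 209.2 in m718, 29.8 to 120.2 in osteosarcoma and 718.4 in mc3T3, and did not pass (adjusted p = 0.177 by limma). For Sox5, Sox9 and Sox11 mc3T3 was brighter than m718, whereas Sox2 was dim in mc3T3.

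The tested stem cell genes that often accompany Sox2 did not rise. Of 7 tested members of the pluripotency and neural progenitor list 0 rose and 1 fell. The pluripotency factors Pou5f1 and Nanog were dim, at 18.1 and 2.0 in m718, and were not tested because no array reached 200. Pou3f1, at 87.4 in m718 against 1.3 to 39.0, and Fgf4, at 115.0 against 42.2 to 107.3, lay above all osteosarcomas. They too stayed under 200 and were not tested. Of the 7 tested genes m718 lay above all osteosarcomas for 0 and below all for 2. Msi1, an RNA-binding protein of neural progenitors, had 6.2 in m718, 207.8 to 557.8 in the osteosarcomas and 59.5 in mc3T3. It fell by 3.42 ± 0.42 on the log2 scale (limma adjusted p = 0.000337), with m718 below all 12 osteosarcomas. Nes, the intermediate filament of progenitors, had 346.8 in m718 and a difference of -0.25 ± 0.65.

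For Nxph1 the list held its relatives, the neurexins and other synaptic partners, and 0 of 5 tested genes rose or fell, with a median difference of 0.04. The receptor gene Nrxn3 had 150.0 in m718 against 151.3 to 584.8 in the osteosarcomas (-1.13 ± 0.57, adjusted p = 0.347 by limma). For Spon2 the list of spondins, R-spondins, thrombospondins and related genes had 0 of 13 tested genes called, with a median of -0.79. Thbs2, a matrix thrombospondin, had 13555.1 in m718 against 1152.9 to 8682.9 in the osteosarcomas and did not pass (2.13 ± 0.79, adjusted p = 0.188 by limma). Thsd7a, which has thrombospondin repeats, had 262.3 in m718 against 2.0 to 140.9 and did not pass (2.37 ± 0.66, adjusted p = 0.0719 by limma).

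For AW551984 the list took Vwa5a, its neighbour in the genome, with other genes that share domains with Vwa5a, and 1 of 3 tested genes rose. Itih5, a hyaluronan-binding inter-alpha-trypsin inhibitor heavy chain, had 1541.3 in m718, 37.2 to 351.6 in osteosarcoma and 24.2 in mc3T3. Its difference was 3.39 ± 0.73 (limma adjusted p = 0.0213), and against the osteosarcomas whose identifiers start with m alone it did not pass (adjusted p = 0.0788 by limma). Vwa5a itself had 5474.0 in m718, 990.9 to 3716.4 in the osteosarcomas and 2236.7 in mc3T3, a difference of 1.28 ± 0.53 that did not pass (adjusted p = 0.241 by limma).

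For Gfra2 the GDNF family list had 0 of 6 tested genes called. The co-receptor RET was not bright, with a Ret signal of 13.0 in m718, 7.9 to 167.1 in the osteosarcomas and 9.9 in mc3T3. The ligand gene Artn had 416.1 in m718 against 8.0 to 163.4 in the osteosarcomas (2.27 ± 0.75, adjusted p = 0.134 by limma), and Gdnf 199.6 against 2.2 to 161.8, just under the level for testing. Neurturin, the preferred ligand of Gfra2, did not separate, with an Nrtn signal of 141.6 in m718 and 22.1 to 1242.8 in the osteosarcomas. Ncam1, an alternative signalling partner, had 1173.9 in m718 and 403.1 to 1361.7 in the osteosarcomas. Sorl1, a sorting receptor of this ligand family, had 917.7 in m718 against 143.0 to 684.6 and did not pass (1.24 ± 0.63).

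**Figure D3:**
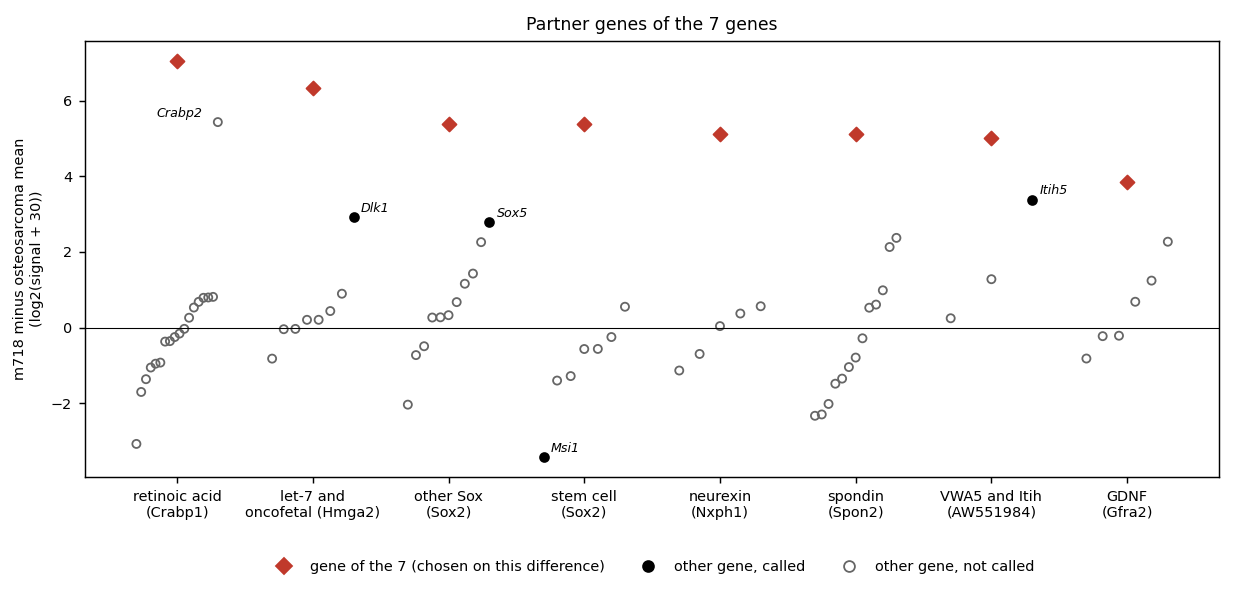
Difference between m718 and the osteosarcoma mean on the log2(signal + 30) scale for the 7 genes (diamonds) and the tested genes of their partner lists (circles, filled where called), with Sox2 drawn for both of its lists. Of the 71 partner genes, Dlk1, Sox5 and Itih5 are called above 0 and Msi1 below, and Crabp2 at 5.43 is not called.

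The 7 genes lie on 6 chromosomes, with Crabp1 and AW551984 both on chromosome 9. The 5 tested genes on each side of every member, in the gene order of assembly GRCm38.p6, were used to see whether a whole stretch was higher. Of these 70 neighbours 0 rose by limma and 3 fell. At an unadjusted p under 0.05, 4 were higher and 5 lower, and over all tested genes 7.9% were higher at that level. The median difference of the neighbours was 0.00, and m718 lay above all osteosarcomas for 11 (15.7%, against 16.6% of all genes). By stretch, this count was 4 of 10 around Sox2 (median difference 0.33), 3 of 10 around Nxph1 (0.21), 2 of 10 around AW551984 (0.18), 1 of 10 each around Spon2 (0.07) and Gfra2 (-0.08), and 0 of 10 each around Crabp1 (-0.34) and Hmga2 (-0.57). The largest positive difference was that of Thsd7a, close to Nxph1, at 2.37, and beside Sox2 the neighbours ranged from -0.62 to 1.04.

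Among the neighbours that fell was a bone gene. Panx3, a channel protein of osteoblasts that is close to AW551984, had 42.0 in m718 against at most 16890 in the osteosarcomas and fell by 6.65 ± 0.86 on the log2 scale (limma adjusted p = 0.000549). Wif1, a secreted Wnt inhibitor close to Hmga2, had 38.1 in m718 against at most 17171 and fell by 5.48 ± 1.29 (limma adjusted p = 0.0322), a call lost with a pseudocount of 100 (adjusted p = 0.0593 by limma). Tbrg1, also close to AW551984, fell by 1.75 ± 0.45 (limma adjusted p = 0.0493), a call lost under 14 of the 20 alternatives tried, with limma adjusted p between 0.0238 and 0.095. Among those 14 was leaving out any of osteosarcomas 1, 2, 3, 6, 7, 8, 9, 10 and 11 in turn. Panx3 is also a member of the osteoblast list described next.

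**Figure D4:**
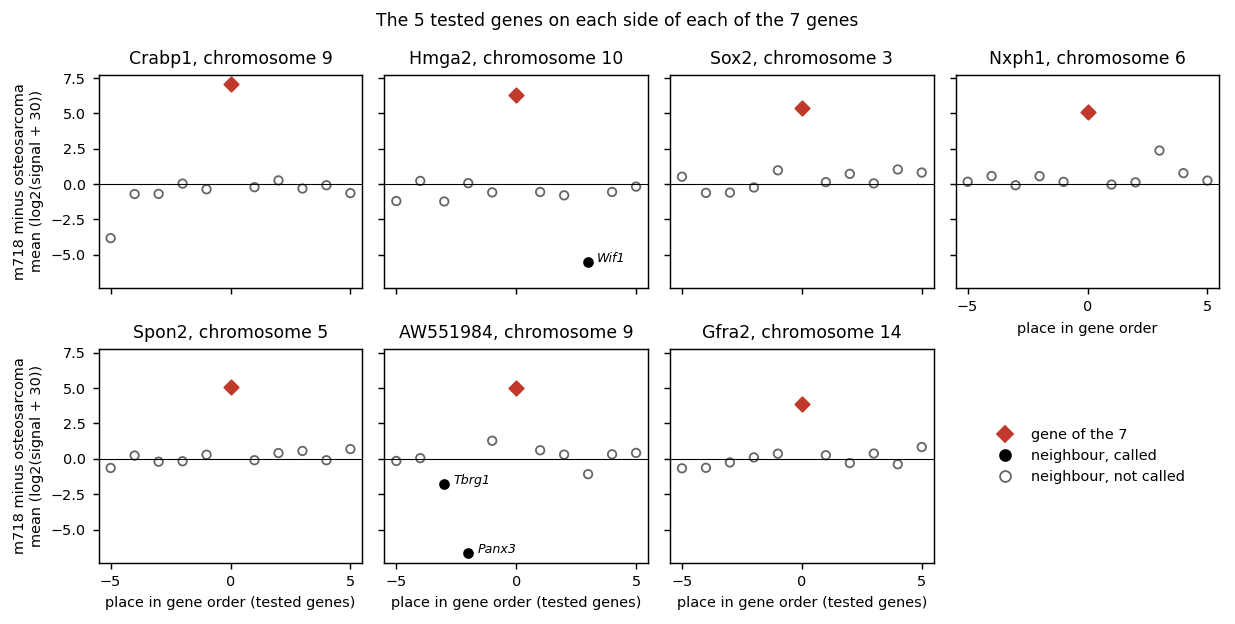
Difference between m718 and the osteosarcoma mean on the log2(signal + 30) scale for each of the 7 genes (diamonds, at place 0) and the 5 tested genes on each side of it in gene order (circles, filled where called). The filled points, Wif1, Tbrg1 and Panx3, lie below 0, and the height of the diamonds was fixed by the choice of the genes.

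Markers of other cell types were read beside the 7 genes, because a tumour sample can hold many kinds of cells. Bone markers were low in m718: of 15 tested osteoblast and bone matrix genes 10 fell and 0 rose, and of 12 osteoclast genes 9 fell and 0 rose. Of these, Col1a1 lost its call under 10 of 20 alternatives (limma adjusted p up to 0.496), Col1a2 under 2 (up to 0.124) and Itgb3 with the mean of probe sets (0.0579). The summed osteoblast signal was 82370 in m718, 215393.3 to 302878.7 in the osteosarcomas and 193759.7 in mc3T3. Ibsp, which encodes bone sialoprotein, marked the osteosarcomas as bone tumours, with 155.0 in m718 against 30210.3 to 49087.2, and it was dim in mc3T3, at 37.4. The osteosarcoma samples thus carried their lineage markers, and the cultured osteoblast line lacked this late one while its signal of the osteoblast factor Sp7 was 1514.6.

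Some markers of the nervous system moved with the 7 genes and others did not. Over all genes tested, m718 lay above all osteosarcomas for 16.6%. Of 12 tested Schwann cell and neural crest genes m718 lay above all osteosarcomas for 4, and 2 rose, Cdh19 (2.996 ± 0.618, limma adjusted p = 0.0162) and Egr2 (2.47 ± 0.50, limma adjusted p = 0.0138). Cdh19 is a cadherin of Schwann cell precursors, with 391.5 in m718 against 1.3 to 65.1 in the osteosarcomas, and with a pseudocount of 8 it did not pass (adjusted p = 0.0957 by limma). Egr2, a factor of myelinating glia also used by immune cells, had 826.3 in m718 against 55.7 to 224.6. The neural crest factor gene Tfap2a had 245.4 in m718 against 6.7 to 105.6 and did not pass (adjusted p = 0.111 by limma), and Foxd3 had 54.3 against 2.6 to 29.2. The lineage factor Sox10 was dim, at 14.2 in m718 against 24.1 to 162.0 in the osteosarcomas, and the summed list signal, 9834.4 in m718, lay within the osteosarcoma range of 2547.5 to 10980.8 and below mc3T3 at 14542.8.

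Of 4 tested neuronal genes m718 lay above all osteosarcomas for 2 and 1 rose, Stmn2, a tubulin-binding protein of growing axons, with 1899.5 in m718 against 18.7 to 460.2 in the osteosarcomas (3.71 ± 0.75, limma adjusted p = 0.0138). The summed neuronal signal was 4257.7 in m718, 926.3 to 1848.9 in the osteosarcomas and 471.8 in mc3T3. Of the m718 sum Stmn2 alone gave 1899.5, which is above the highest osteosarcoma sum of the whole list. The tested genes Uchl1, at 1149.4 in m718, and Tubb3, at 155.2, lay within their osteosarcoma ranges. The secretory granule gene Chga had 300.8 in m718 against 5.3 to 96.3 and did not pass (adjusted p = 0.0764 by limma). Among genes that were not tested, the neurofilament gene Nefm had 159.4 in m718 against 3.2 to 43.9 and the axon growth gene Gap43 had 199.1 against 6.9 to 176.4, while the synaptic gene Snap25 had 16.9 against 0.8 to 27.4 and Elavl4 had 1.6 against 1.6 to 65.7. The part of nerve cells in the signal of Sox2, Nxph1 and Gfra2 was not tested beyond these values.

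Many immune and fibroblast markers lay above the osteosarcomas in m718, which held for 16.6% of all genes tested. Of the lymphocyte sum given next, the chemokine gene Ccl5 alone gave 3745.7 in m718 and 667.7 in mc3T3, a cultured osteoblast line. In m718 Cd3e, Cd4, Cd8a, Cd79a and Ms4a1 were not above all osteosarcomas. Of 7 tested lymphocyte genes 1 rose, the chemokine gene Ccl5 (3.72 ± 0.85, limma adjusted p = 0.0274), and m718 lay above all osteosarcomas for 5, with a summed signal of 5730.6 in m718, 457.5 to 2315.8 in the osteosarcomas and 1080.5 in mc3T3. Of 15 macrophage genes 0 were called at the adjusted threshold and m718 lay above all osteosarcomas for 8, with a sum of 217506.1 in m718, 72911.2 to 186675.9 in the osteosarcomas and 1166.3 in mc3T3. At an unadjusted p under 0.05, 3 of those macrophage genes were higher and 1 lower. Of 20 fibroblast genes 0 rose and 2 fell, Fap and Tnc, while m718 lay above all osteosarcomas for 9, among them Pi16 (607.0 against 8.2 to 252.5) and Dpt (3715.2 against 67.6 to 2149.2), genes of adventitial fibroblasts. For 3 of the 20, among them Pdgfrb (3185.5 against 3772.8 to 14998.1), m718 lay below all osteosarcomas. The summed fibroblast signal was 179743.4 in m718, 112585.3 to 275474.2 with a median of 203494.8 in the osteosarcomas, and 252366.9 in mc3T3. Tnc did not pass with the mean of its probe sets (adjusted p = 0.0665 by limma).

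The remaining lists had 0 genes called higher, covering mature muscle, smooth muscle, endothelium, epithelium, melanocyte, dermal papilla and adipocyte genes, and in the adipocyte list 2 of 5 fell. Dermal papilla cells of hair follicles, which are known to make Sox2 and Crabp1, had 8 tested markers, of which 0 were called at the adjusted threshold by limma and 3 were lower at an unadjusted p under 0.05. Their summed signal was 3632.9 in m718, 2361.2 to 7299.5 in the osteosarcomas and 23031.5 in mc3T3. The part of any of these cell types in the high signal of the 7 genes was not tested.

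**Figure D5:**
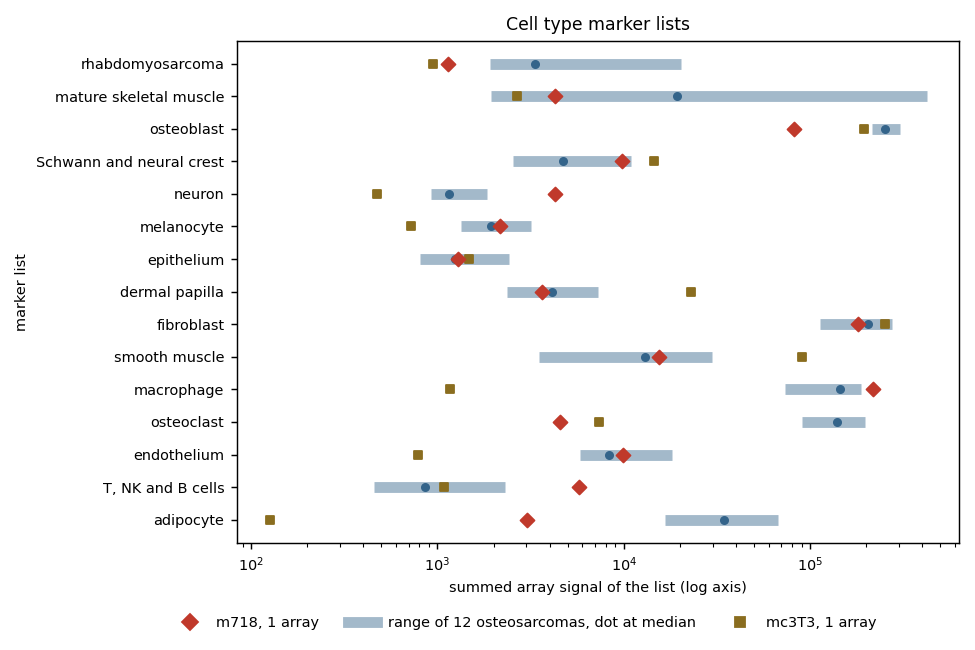
Summed array signal of 15 cell type marker lists on a log axis, with m718 as diamonds, the range of the 12 osteosarcomas as bars with a dot at the median, and mc3T3 as squares. The m718 sum lies above the osteosarcoma range for the neuron, macrophage and lymphocyte lists and below it for the rhabdomyosarcoma, osteoblast, osteoclast and adipocyte lists.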

How the data were processed

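Total RNA of 13 tumours and the mc3T3 line was put on 14 arrays after biotin labelling, per the labels' protocols. The deposited values are signal intensity per probe set on a linear scale, made with GCOS, per the submitters' processing notes, and no source used here gives its version. Each array's mean after dropping 2% of values at each end was 500. The table has 45101 probe sets, 64 of them controls, which were left out. Samples were grouped by title, since every description field names mc3T3. Osteosarcomas were numbered 1 to 12 in accession order, and nothing says that they came from separate animals, so p-values measure only the spread between these samples. All arrays differed, with a correlation of at most 0.954 between any pair.

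Gene symbols are those of the platform annotation, with 34741 probe sets updated by Entrez identifier (34945 with 1 symbol, 932 with several genes, 9160 unnamed here). Probe sets that reached 200 on 1 or more arrays were kept, and a gene was represented by its brightest, 11815 in all. The log2(signal + 30) values, which understate the change of low genes, were fitted with limma 3.58.1 in R 4.3.3 (3 groups, lmFit and eBayes, two-sided, Benjamini-Hochberg over all genes, 11 residual and 3.56 prior degrees of freedom). Genes were called at an adjusted p under 0.05 with a difference of 1 or more. The fitting step was tested on simulated data. The fit assumes that a lone array varies as the osteosarcomas do, which was not tested. The number of arrays limits the precision.

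The named genes are the 7 members, for each the 3 genes of the most similar profile, up to 4 called genes per list with its defining genes, and called neighbours. The 7 members and all lists were chosen with earlier results of these data known, so members get no test and a list's count is no independent evidence. Alternatives were other pseudocounts, quantile normalization, other filters, the mean of probe sets, and subsets of osteosarcomas.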

Additional observations from a re-analysis of the deposited data

How the results depend on the processing

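The number of genes called higher in m718 was 141, and 85 with a pseudocount of 8 in place of 30. Under the other alternatives that kept all osteosarcomas or a fixed subset it was 106 to 206. With the pseudocount of 8 included among those alternatives, the number called lower, 208, was 155 to 223. Leaving out each osteosarcoma in turn gave 128 to 151 higher and 172 to 233 lower. For the 7 members 0 of 140 alternative values changed sign and 13 moved by more than 1 SD of the osteosarcomas. The members were chosen for a higher signal in m718, so the lack of a sign change is no support. Crabp1, for example, had a difference of 8.08 with a pseudocount of 8 and 5.74 with 100.

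Of 34 called partner, neighbour and marker genes 8 lost the call under at least 1 of 20 alternatives (19 for Cdh19 and Sox5, which a filter at 500 left out). They were Tbrg1, Itih5, Cdh19, Tnc, Wif1, Itgb3, Col1a2 and Col1a1, the last also on leaving out osteosarcoma 3, 5, 6, 9 or 10. No paired analysis was possible because the labels give no replicate numbers and m718 and mc3T3 are 1 array each. Low signals cannot be told from background, which limits every ratio to the osteosarcomas.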
